A study of Homo sapiens with 20 samples.

Results

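The genes described here are 9 transcriptional targets of p53: *CDKN1A*, *MDM2*, *ZMAT3*, *FDXR*, *TP53I3*, *SESN1*, *RRM2B*, *BTG2* and *TP53INP1*. They were named by symbol, and each symbol matched 1 of the 58233 Ensembl gene identifiers in the deposited count files. RNA-seq was performed on 20 libraries from 4 lung cancer cell lines in 10 conditions, with 2 libraries per condition. All cells carried Cas9 and an sgRNA delivered by lentivirus, either against *GFP*, which is not a human gene, or against *ADAR*, the gene of the RNA-editing enzyme ADAR1. The libraries of a condition differed in the sgRNA (sg1 or sg2), so that the spread between them holds the difference between sgRNAs, and p-values measure that spread and not repeats of the experiment. HCC366 (adenosquamous carcinoma), NCI-H1650 (adenocarcinoma) and NCI-H196 (small cell lung cancer) depend on ADAR1 and were collected untreated, 5 days after transduction. A549 (adenocarcinoma) tolerates *ADAR* loss and received vehicle (sterile water) or 10 ng/mL IFN-β for 24 h. The cells were drug-selected pools, and the time from transduction to RNA is not stated for A549.

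p53 is a transcription factor that MDM2, a ubiquitin ligase, keeps at a low level in unstressed cells. Breaks in DNA activate the kinases ATM and ATR, which release p53 from MDM2, and p53 then binds a repeated decamer near its target genes and raises their transcription. The targets include its own inhibitor *MDM2*, the cell cycle inhibitor *CDKN1A* and genes of DNA repair, redox balance and cell death. A double-strand break made by Cas9 is such a signal. Since the *ADAR* sgRNAs have a target in the genome and the *GFP* sgRNAs have none, the comparison of both sets asks whether the p53 targets show a difference in the RNA at the time of collection.

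To place the genes on the sequence that p53 recognises, the p53 consensus response element was searched within 2500 bases on either side of the start of each gene's canonical transcript in GRCh37. The element is 20 bases of 2 decamers with no spacer and reads the same on both strands. At most 2 mismatches were allowed, none of them at the fixed C and G of each decamer. A match was found in 5 of the 9 genes (*CDKN1A*, *MDM2*, *ZMAT3*, *RRM2B* and *BTG2*) and in 751 of the 19881 windows of protein-coding genes, or 3.78%. Those of *CDKN1A*, *MDM2*, *ZMAT3* and *BTG2* are shown because these 4 genes are followed most closely below, with the 4 central bases of each decamer in capitals and the strand of the gene.
CDKN1A, chr6:36644226-36644245, plus strand: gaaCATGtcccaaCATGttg
MDM2, chr12:69202703-69202722, plus strand: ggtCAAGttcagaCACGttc
ZMAT3, chr3:178787976-178787995, minus strand: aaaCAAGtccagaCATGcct
BTG2, chr1:203272770-203272789, plus strand: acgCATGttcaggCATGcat
In *CDKN1A*, which encodes the cyclin-dependent kinase inhibitor p21, the centre of the match lay 2256 bases before the start of the canonical transcript and touched an exon of a longer transcript. The *MDM2* match lay 755 bases after the start, in an intron. *ZMAT3*, which encodes a zinc finger RNA-binding protein, held the match with 0 mismatches, 1611 bases after the start and also in an intron. The *BTG2* match lay 1868 bases before the start, outside the gene. For *FDXR*, *TP53I3*, *SESN1* and *TP53INP1* these letters were not in the window. The matches are descriptions of sequence, and binding was not measured.

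The libraries held between 62679 and 19520189 reads on genes, with a median of 6411279. NCI-H196 GFP sg2 was the shallowest, and 1 read corresponded to 14.7 CPM there (reads divided by TMM-adjusted library size, within the line), so that a count of 0 allows up to 3 reads or 43.98 CPM. HCC366 ADAR sg2 had 85.6% of its alignments at more than 1 place, against 22.5% to 59.1% in the other 19 libraries. For the results below that either library moved, the values without it are given too. *ADAR* mRNA fell in NCI-H1650, NCI-H196 and both A549 conditions, with log2 fold changes from -1.29 to -0.41 (adjusted p from 6.63e-14 to 0.00165, edgeR quasi-likelihood test), while with DESeq2 it passed in NCI-H1650 alone. In HCC366 its log2 fold change was -0.84 (SE, the standard error of the log2 fold change, 0.31, adjusted p = 0.208), with both ADAR libraries below both GFP libraries. Of 6 epithelial markers, 3 averaged over 1 CPM in NCI-H196, 4 in A549 (where *EPCAM* did not), 5 in HCC366 and 6 in NCI-H1650. Their summed levels were 52.3 to 83.9 CPM in NCI-H196 and 2635 to 9868 CPM elsewhere. Of 6 neuroendocrine markers, 3 averaged over 1 CPM in NCI-H196, the line described as small cell, with *NCAM1* among them and under 1 CPM in the other lines, while *NEUROD1* and *INSM1* averaged under 1 CPM. Of 4 squamous markers, 2 averaged over 1 CPM in HCC366, described as adenosquamous, 4 in NCI-H1650 and 1 each in A549 and NCI-H196. Their summed levels were 68.0 to 81.6 CPM in NCI-H1650 and 1.43 to 7.98 CPM in HCC366. In NCI-H196 they were 14.7 to 41.8 CPM and in A549 2.56 to 4.31 CPM. *NKX2-1* was under 1 CPM on average in all 4 lines.

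In the GFP libraries, the p53 target genes did not form 1 order across the lines. To compare lines, CPM was scaled by TMM over all 20 libraries, and vehicle-treated A549 cells were set against the mean of the other 3 lines, which were untreated. Of the 9 genes, *FDXR*, *TP53I3*, *BTG2* and *MDM2* were higher in A549 and *TP53INP1*, *CDKN1A* and *ZMAT3* were lower (edgeR quasi-likelihood test, adjusted p under 0.05). *SESN1* and *RRM2B* did not pass. With DESeq2's size factors the differences of all genes shifted by a median of -0.12 on the log2 scale, no gene of the 9 changed direction, and *RRM2B* passed as lower (-0.47, adjusted p = 0.0169, against -0.35). In this contrast 30.2% of the 19523 genes tested were higher and 24.7% were lower, so that 7 of 9 differing genes stand beside 54.9% of all genes. Line and treatment with vehicle differ together here and cannot be told apart.

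*FDXR*, which encodes the mitochondrial ferredoxin reductase, had the largest difference in favour of A549. Its level was 64.4 and 58.4 CPM in the A549 GFP libraries (sg1 and sg2, vehicle), 12.2 and 9.91 CPM in HCC366, 8.48 and 9.21 CPM in NCI-H1650, and 10.0 and 0 CPM in NCI-H196. The A549 libraries lay above all others. The log2 difference was 2.65 (SE 0.21, adjusted p = 1.16e-12). *TP53I3*, a quinone oxidoreductase, measured 79.9 and 81.3 CPM in A549 and 52.6 and 39.96 CPM in NCI-H1650. In HCC366 and NCI-H196 it was between 10.5 and 20.5 CPM. A549 was again above every other library, by 1.85 on the log2 scale (SE 0.17, adjusted p = 4.19e-11). However, *TP53I3* lies across from *FAM228B* on the opposite strand, and the strand setting of the counting is not stated. Other genes of the 9 overlap genes too: *MDM2* overlaps 4 (2 on its own strand), *SESN1* 2 (1 on its own strand) and *TP53INP1* lies across from *NDUFAF6*. *BTG2*, an antiproliferative gene, was at 11.5 and 10.6 CPM in A549 and at 4.47 CPM or less in 5 of the other 6 GFP libraries, while NCI-H196 GFP sg2 held 0 reads, which allow up to 31.4 CPM on this scale. Its log2 difference was 1.85 (SE 0.24, adjusted p = 7.52e-08). Without NCI-H196 GFP sg2 the differences of *FDXR*, *TP53I3* and *BTG2* were 2.66, 1.86 and 1.86.

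*MDM2* differed least among the genes that were higher. Its level was 151 and 153 CPM in A549, 135 and 149 CPM in NCI-H1650, 139 and 136 CPM in NCI-H196 and 65.0 and 69.1 CPM in HCC366. NCI-H1650 and NCI-H196 overlapped, and the HCC366 libraries stood apart from the rest. The log2 difference between A549 and the mean of the other lines was 0.47 (SE 0.15, adjusted p = 0.0078), and it did not pass without A549 GFP sg1 (adjusted p = 0.0552), A549 GFP sg2 (0.0697) or NCI-H196 GFP sg1 (0.0555).

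*CDKN1A* was lower in A549 than in 2 of the other lines. It measured 97.8 and 89.6 CPM in A549, 499 and 314 CPM in NCI-H196, 276 and 234 CPM in NCI-H1650 and 37.2 and 29.5 CPM in HCC366, and no neighbours in this order overlapped. Against the mean of the lines the log2 difference was -0.72 (SE 0.21, adjusted p = 0.00392), with an adjusted p of 0.0695 without A549 GFP sg2 and 0.0888 without NCI-H196 GFP sg1. *TP53INP1*, which encodes a stress-response protein of autophagy and cell death, was at 3.51 and 2.74 CPM in A549 and between 6.69 and 19.5 CPM in the other lines. The log2 difference was -1.91 (SE 0.30, adjusted p = 1.97e-06), with an adjusted p of 0.162 without NCI-H196 GFP sg1. *ZMAT3* ranged from 19.9 to 34.8 CPM over the 4 lines, and its difference of -0.56 (SE 0.18, adjusted p = 0.0093) did not pass when either A549 library, HCC366 GFP sg2 or NCI-H196 GFP sg1 was left out (adjusted p from 0.0591 to 0.681).

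For *RRM2B*, a ribonucleotide reductase subunit, the order was NCI-H196, NCI-H1650, A549 and HCC366, from 59.0 to 30.6 CPM on average. Only NCI-H1650 and A549 did not overlap among these neighbours. *SESN1*, which encodes a stress-induced inhibitor of mTORC1, measured 5.43 and 5.31 CPM in A549, 7.15 and 5.35 CPM in HCC366 and 4.73 and 5.23 CPM in NCI-H1650. In NCI-H196 it was 8.35 and 31.4 CPM, where the second value rests on 3 reads. Per kilobase of exon, the level in vehicle-treated A549 GFP cells was highest for *TP53I3* (34.9 CPM per kb) and *CDKN1A* (31.3 CPM per kb) and lowest for *SESN1* (0.738 CPM per kb) and *TP53INP1* (0.554 CPM per kb). In NCI-H196 the level of *CDKN1A* was 136 CPM per kb.

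**Figure D1:**
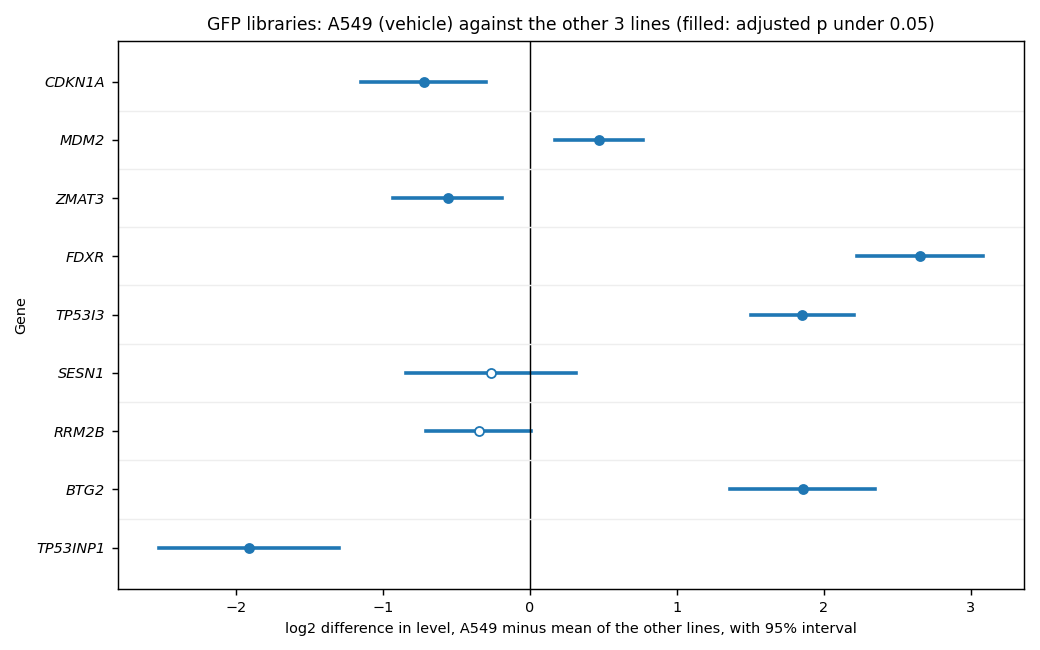
Difference in level of the 9 p53 target genes between vehicle-treated A549 GFP libraries and the mean of the GFP libraries of HCC366, NCI-H1650 and NCI-H196, on the log2 scale with 95% intervals (2 libraries per line; filled points have an adjusted p under 0.05). The differences ran from -1.91 for *TP53INP1* to 2.65 for *FDXR*.

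Of 29 other p53 targets tested, 18 were higher and 8 were lower in A549, beside 30.2% and 24.7% of all genes, with a median log2 difference of 0.72 against -0.03 over all genes. *EDA2R*, a receptor of the TNF receptor family, was at 9.96 and 8.71 CPM in A549 (scaled within the line), at 0 CPM in HCC366 and NCI-H1650 and at 0.223 CPM in NCI-H196 GFP sg1, while NCI-H196 GFP sg2 held 0 reads. *CYFIP2*, a regulator of actin dynamics, averaged 87.5 CPM in A549 (scaled over all 20 libraries), 25.1 CPM in HCC366 and 0.505 CPM in NCI-H1650, and it was at 2.12 CPM in NCI-H196 GFP sg1 (scaled within the line). *TP53AIP1* had 0 CPM in A549 and a mean of 5.73 CPM in NCI-H1650.

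The effect of cutting *ADAR* was then read in A549. In vehicle-treated A549 cells, none of the 9 p53 target genes passed the test, and none had an unadjusted p under 0.05 (edgeR quasi-likelihood test, and 0 with DESeq2). Across all genes, 0.0324% were higher and 0.0906% were lower, 19 of 15449 in all. The 9 log2 fold changes lay between -0.05 and 0.19 with a median of 0.03, against a median of 0.00 over all genes. No left-out library and no other setting gave a call among the 9 genes.

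*CDKN1A* measured 80.8 and 71.7 CPM with *GFP* sg1 and sg2 and 92.0 and 79.1 CPM with *ADAR* sg1 and sg2 (CPM scaled within the line, here and below). The groups overlapped. The log2 fold change was 0.17 with a 95% interval from -0.08 to 0.42. *MDM2* measured 125 and 122 CPM with *GFP* and 126 and 117 CPM with *ADAR*, again with overlap, and its log2 fold change was -0.02 with an interval from -0.24 to 0.20. *FDXR* was at 53.2 and 46.7 CPM against 53.2 and 48.4 CPM, and its interval ran from -0.26 to 0.32. These intervals bound the change that the libraries allow at collection and say nothing of earlier times.

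Both ADAR libraries lay above both GFP libraries for *TP53I3*, *SESN1* and *BTG2*, 3 of 9 genes beside 18.8% of all genes. *TP53I3* was at 66.0 and 65.1 CPM against 77.2 and 66.1 CPM. *BTG2* was at 9.50 and 8.50 CPM against 10.7 and 9.66 CPM. Their log2 fold changes were 0.13 (SE 0.13) and 0.19 (SE 0.22), both with an adjusted p of 0.998. By sgRNA, *ADAR* sg1 was above the GFP mean for all 9 genes, by 0.03 to 0.36 on the log2 scale. *ADAR* sg2 lay between -0.51 and 0.18. The share of all genes above the GFP mean was not computed, so the 9 of 9 cannot be set against it. *ADAR* mRNA was at -1.44 with sg1 and -0.80 with sg2. In HCC366 it was lower with sg2, at -0.94 against -0.72 with sg1. There 4 of the 9 genes were above the GFP mean with sg2 and 7 with sg1. A relation between *ADAR* mRNA and the 9 genes was not tested.

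**Figure D2:**
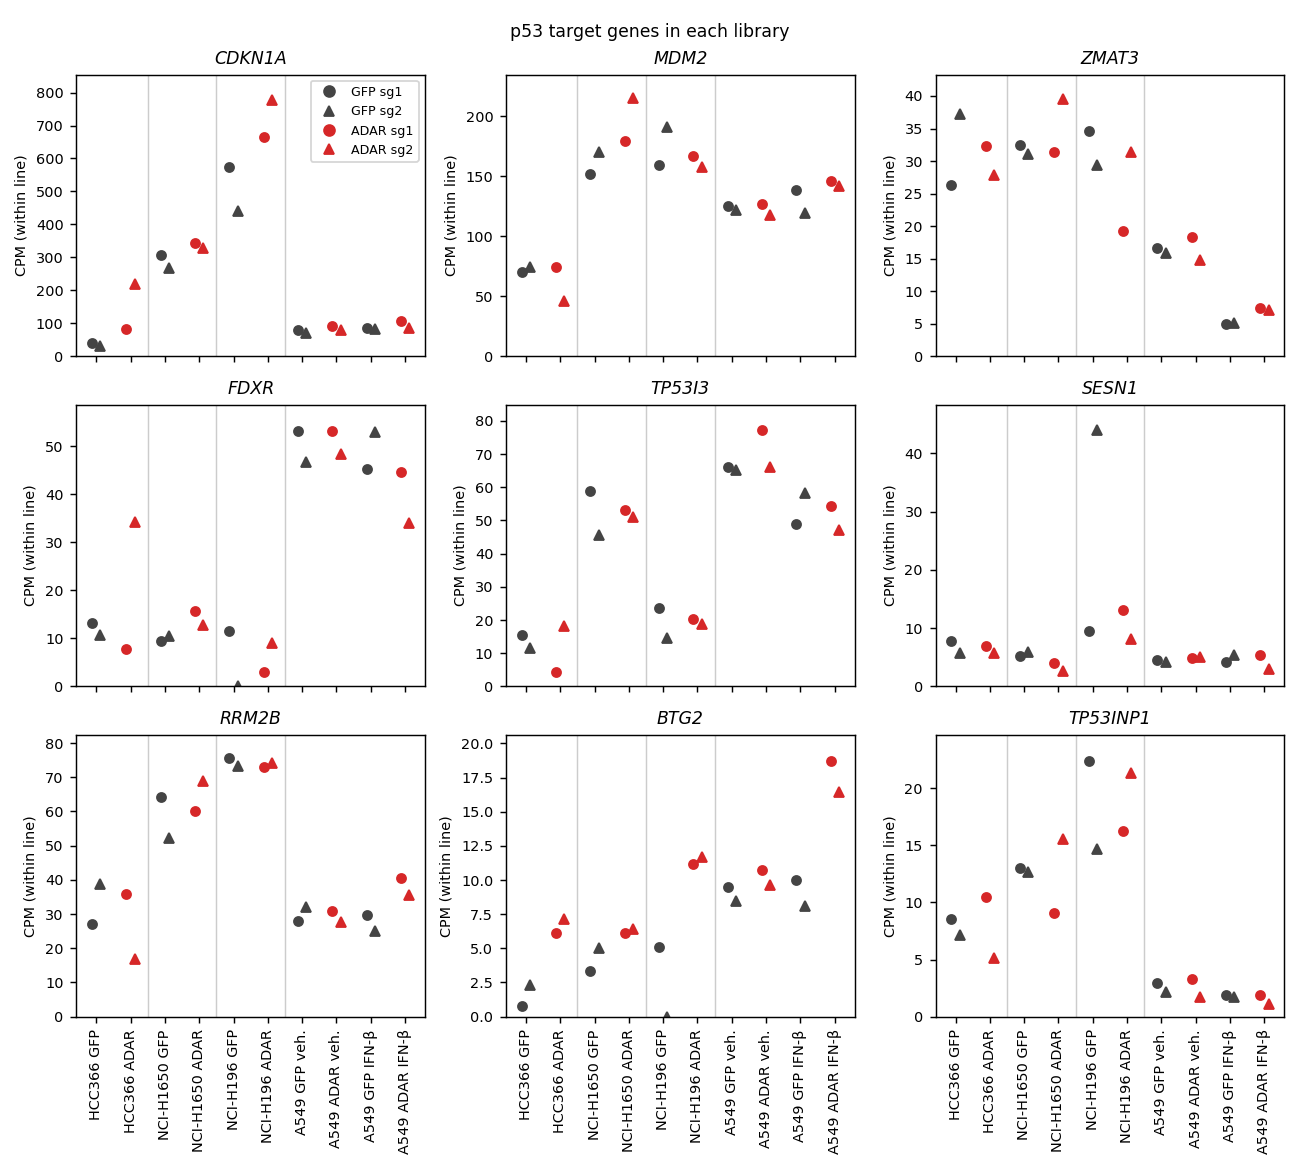
CPM, scaled by TMM within each cell line, of the 9 p53 target genes in all 20 libraries, with circles for sg1 and triangles for sg2, grey for *GFP* and red for *ADAR* sgRNAs, and an axis from 0. In vehicle-treated A549 cells the red and grey points lie side by side, while *ZMAT3* is lower in all 4 IFN-β libraries and *BTG2* is higher in both ADAR libraries with IFN-β.

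In A549 cells treated with IFN-β, *ADAR* KO was accompanied by an increase of *BTG2* and *RRM2B*, and no p53 target gene of the 9 fell. Across all genes 10.8% rose and 6.19% fell, and the 2 of 9 stand beside that share. *BTG2* measured 10.0 and 8.13 CPM with *GFP* and 18.7 and 16.5 CPM with *ADAR*. The groups did not overlap, and the log2 fold change was 0.96 (SE 0.20, adjusted p = 0.00131). It passed with each library left out in turn. *RRM2B*, which supplies deoxyribonucleotides for DNA repair, measured 29.8 and 25.0 CPM with *GFP* and 40.5 and 35.7 CPM with *ADAR*. Here too the groups did not overlap. Its log2 fold change was 0.48 (SE 0.15, adjusted p = 0.022), which did not pass without *GFP* sg2 (adjusted p = 0.189), *ADAR* sg1 (0.144) or *ADAR* sg2 (0.0688).

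*CDKN1A* and *MDM2* did not pass in these cells. *CDKN1A* was at 84.3 and 81.7 CPM with *GFP* and 108 and 86.2 CPM with *ADAR*, with the sg1 library above the others. Its log2 fold change was 0.22 with an interval from -0.02 to 0.46 (adjusted p = 0.218). *MDM2* was at 139 and 120 CPM against 146 and 142 CPM, and its log2 fold change was 0.16 with an interval from -0.05 to 0.37. Both ADAR libraries were above both GFP libraries for 5 of the 9 genes, beside 28.2% of all genes. For *FDXR* alone both were below (27.5% of all genes), with 45.2 and 52.97 CPM against 44.7 and 34.0 CPM (log2 fold change -0.34, SE 0.14, adjusted p = 0.0921). Without *GFP* sg1 or *ADAR* sg1 this fall passed (adjusted p = 0.026 and 0.0204).

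The difference between the *ADAR* KO effects with IFN-β and with vehicle was tested as an interaction. None of the 9 genes passed, beside 5.05% of all genes (4.07% higher and 0.977% lower). An unadjusted p under 0.05 was reached by 2 of them, *BTG2* (interaction 0.77 on the log2 scale, adjusted p = 0.151) and *RRM2B* (0.53, adjusted p = 0.156), and DESeq2 called 0. *RRM2B* passed without *GFP* sg1 with IFN-β (0.66, adjusted p = 0.0376). Hence the increases of *BTG2* and *RRM2B* with IFN-β were not shown to differ from their values with vehicle, -0.05 for *RRM2B* and 0.19 for *BTG2*.

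**Figure D3:**
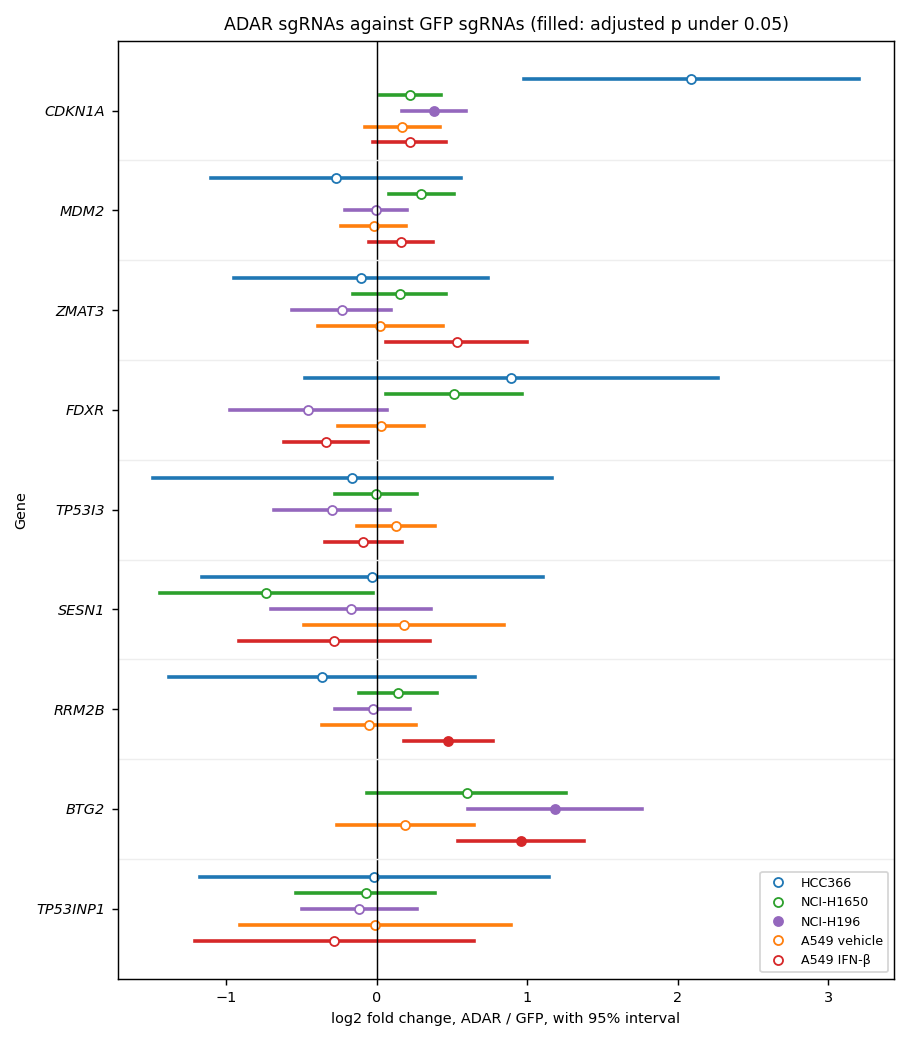
Log2 fold changes of the 9 p53 target genes between *ADAR* and *GFP* sgRNAs in the 5 settings, with 95% intervals from edgeR (2 libraries per group; filled points have an adjusted p under 0.05). The filled points are *CDKN1A* and *BTG2* in NCI-H196 and *RRM2B* and *BTG2* in A549 with IFN-β, and *BTG2* was not tested in HCC366.

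IFN-β itself moved 1 of the 9 genes strongly. In A549 cells with *GFP* sgRNAs, *ZMAT3* fell from 16.6 and 15.9 CPM with vehicle to 4.97 and 5.03 CPM with IFN-β. All IFN-β libraries lay far below the vehicle libraries. Its log2 fold change was -1.70 (SE 0.22, adjusted p = 1.03e-06), where 1.31% of all genes fell and 4.39% rose. In cells with *ADAR* sgRNAs, *ZMAT3* went from 18.3 and 14.8 CPM to 7.36 and 7.14 CPM, a log2 fold change of -1.19 (SE 0.21, adjusted p = 8.1e-05). *ZMAT3* passed in both under all alternatives. The vehicle and IFN-β libraries of a number carry the same sgRNA, and whether their cells came from 1 transduced pool is not stated.

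Further changes with IFN-β passed only in the cells with *ADAR* sgRNAs, and the interaction above shows no call for any of them. There *BTG2* rose from 10.7 and 9.66 CPM to 18.7 and 16.5 CPM (log2 fold change 0.78, adjusted p = 0.00605). *TP53I3* fell from 77.2 and 66.1 CPM to 54.2 and 47.2 CPM (-0.50, adjusted p = 0.00352). *FDXR* fell from 53.2 and 48.4 CPM to 44.7 and 34.0 CPM (-0.38, adjusted p = 0.0458). In all 3 genes the groups did not overlap, but the share of all genes without overlap was not computed for IFN-β against vehicle. Of all genes 15.5% rose and 9.04% fell in this comparison. The fall of *FDXR* did not pass with DESeq2 (adjusted p = 0.0735), without the low-count filter (0.132) or without either vehicle library or *ADAR* sg2 with IFN-β (0.102 to 0.53). *TP53I3* did not pass without *ADAR* sg1 with vehicle (0.117) or *ADAR* sg2 with IFN-β (0.0947), and *BTG2* not without *ADAR* sg2 with vehicle (0.0807). In cells with *GFP* sgRNAs *TP53I3* had a log2 fold change of -0.28 (adjusted p = 0.249) and *BTG2* of 0.01.

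*CDKN1A*, *MDM2*, *SESN1*, *RRM2B* and *TP53INP1* did not pass for IFN-β with either sgRNA target. *MDM2* had log2 fold changes of 0.06 with *GFP* and 0.24 with *ADAR* sgRNAs. *TP53INP1* was between 1.15 and 3.29 CPM in the 8 A549 libraries, so that its intervals were wide, from -1.39 to 0.40 with *GFP* sgRNAs.

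**Figure D4:**
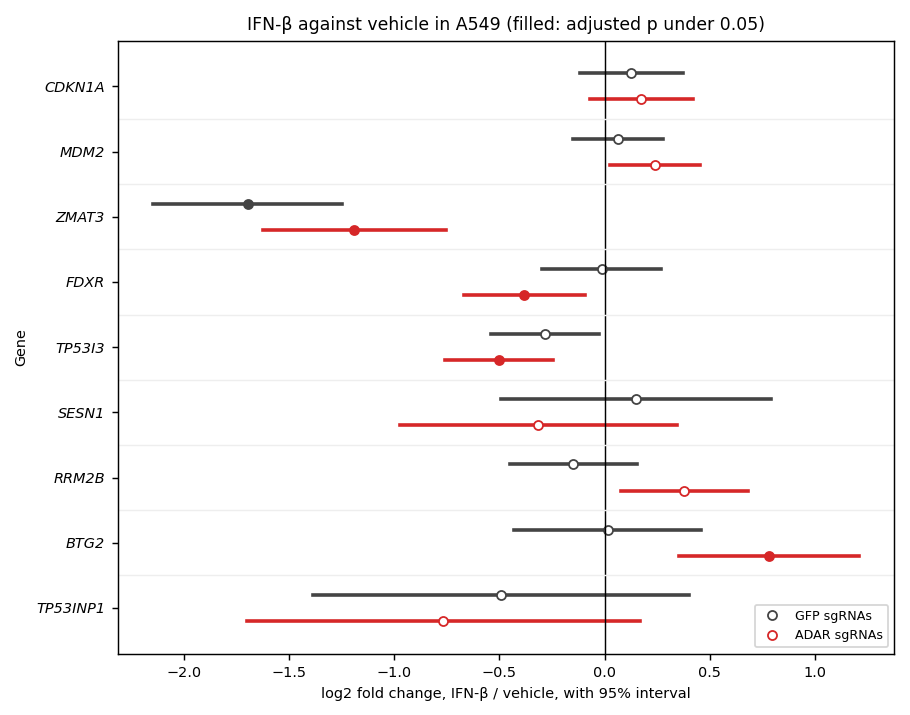
Log2 fold changes of the 9 p53 target genes between IFN-β and vehicle in A549 cells with *GFP* (grey) or *ADAR* (red) sgRNAs, with 95% intervals (2 libraries per group; filled points have an adjusted p under 0.05). *ZMAT3* fell in both, at -1.70 and -1.19, while *BTG2* was at 0.01 and 0.78.

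In the ADAR1-dependent lines, 2 of the 9 genes passed in NCI-H196, both higher, and none passed in HCC366 or NCI-H1650. In HCC366 *CDKN1A* measured 40.3 and 31.5 CPM with *GFP* and 81.4 and 221 CPM with *ADAR*. Both ADAR libraries lay above both GFP libraries, and they differed from each other by more than the GFP libraries did. The log2 fold change was 2.09 (SE 0.49), which did not pass (adjusted p = 0.0865). It passed with DESeq2 (adjusted p = 0.00481), without the low-count filter (0.000272) and with each ADAR library left out. It did not pass with DESeq2's size factors (0.0939) or without *GFP* sg1 (0.491) or sg2 (1.00). Without *ADAR* sg2, the library with many non-unique alignments, it was 1.25 (adjusted p = 9.29e-05), and without *ADAR* sg1 it was 2.65 (adjusted p = 1.02e-30), where the single remaining library is assumed to vary like the GFP libraries.

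No gene of the 8 that were tested passed in HCC366 with edgeR, 1 had an unadjusted p under 0.05, and DESeq2 called 1, in each case *CDKN1A*. Of all genes 1.20% were higher and 0.0449% were lower. *MDM2* was at 70.5 and 73.9 CPM with *GFP* and at 74.4 and 45.9 CPM with *ADAR*, and its log2 fold change was -0.27 with an interval from -1.11 to 0.56. The *ADAR* libraries disagreed for several genes: *FDXR* was at 7.87 CPM with *ADAR* sg1 and 34.3 CPM with *ADAR* sg2, beside 13.2 and 10.6 CPM with *GFP*. Its log2 fold change was 0.89 (adjusted p = 0.446) and turned to -0.51 (adjusted p = 0.675) without *ADAR* sg2, while that of *MDM2* was then 0.06. Without *ADAR* sg1, *FDXR* (1.57), *MDM2* (-0.68) and *RRM2B* (-1.05) passed together with *CDKN1A* (adjusted p from 1.02e-30 to 0.0194). *BTG2* did not pass the low-count filter, with 1 and 8 reads with *GFP* and 7 and 11 reads with *ADAR*, or 0.775 and 2.29 against 6.12 and 7.11 CPM. *CDKN1A* and *BTG2* were the only genes of the 9 with both ADAR libraries above both GFP libraries, beside 25.1% of all genes.

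In NCI-H1650, 0 of the 9 genes passed with edgeR or DESeq2, beside 6.18% higher and 2.42% lower over all genes. An unadjusted p under 0.05, a looser threshold than that of these shares, was reached by 4 of them, with *SESN1* lower. *CDKN1A* was at 308 and 268 CPM with *GFP* and 344 and 328 CPM with *ADAR* (log2 fold change 0.22, adjusted p = 0.183). *MDM2* was at 151 and 170 CPM against 180 and 215 CPM (0.30, adjusted p = 0.0761) and passed without *ADAR* sg1 (0.41, adjusted p = 0.0159). In both genes the groups did not overlap. *FDXR* was at 9.48 and 10.5 CPM against 15.6 and 12.8 CPM (0.51, adjusted p = 0.159). *SESN1* was the only one of the 9 with both ADAR libraries below both GFP libraries (24.3% of all genes), going from 5.29 and 5.97 CPM to 4.09 and 2.56 CPM (-0.73, adjusted p = 0.207). With *BTG2*, 4 genes had both ADAR libraries above both GFP libraries, beside 26.2% of all genes.

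In NCI-H196, *BTG2* and *CDKN1A* rose and no other gene of the 9 passed, beside 10.3% of all genes that rose and 7.50% that fell. *BTG2* measured 5.13 and 0 CPM with *GFP* and 11.2 and 11.7 CPM with *ADAR*. The log2 fold change was 1.19 (SE 0.29, adjusted p = 0.000931). *CDKN1A* measured 574 and 440 CPM with *GFP* and 665 and 777 CPM with *ADAR*, a log2 fold change of 0.38 (SE 0.11, adjusted p = 0.00504). The groups did not overlap in either gene (25.6% of all genes had both ADAR libraries above), but the second GFP value of each is that of the shallow library, with 0 reads for *BTG2* and 30 reads for *CDKN1A*. Without that library both still passed, with *GFP* represented by 1 library. Without *GFP* sg1, which leaves only the shallow library as control, neither passed (adjusted p = 0.708 and 0.128). Without *ADAR* sg2 neither passed (0.979 and 0.998), and without *ADAR* sg1 *CDKN1A* did not (0.471). DESeq2 called 0 of the 9 genes, and its adjusted p for *CDKN1A* was 0.998. *MDM2* had a log2 fold change of -0.01 with an interval from -0.21 to 0.20, and *RRM2B* was between 73.1 and 75.5 CPM in all 4 libraries. The *RRM2B* value of the shallow library, 73.3 CPM, rests on 5 reads, so its closeness to the others is not a measure of constancy.

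Whether the *ADAR* KO effect in A549 differed from that in the other lines was tested over all 20 libraries. For vehicle-treated A549 cells minus the mean of the other 3 lines, none of the 9 genes passed, beside 0.953% of all genes (0.138% higher and 0.814% lower). An unadjusted p under 0.05 was reached by *BTG2* (-1.01, SE 0.34, adjusted p = 0.154) and *CDKN1A* (-0.76, SE 0.28, adjusted p = 0.205), and DESeq2 called 0. For IFN-β-treated A549 cells none passed either, beside 2.07% of all genes (1.12% higher and 0.948% lower), with 4 genes at an unadjusted p under 0.05 and 0 called by DESeq2. *CDKN1A* was at -0.75 there (adjusted p = 0.135). Both contrasts use the same libraries of the other lines. Without HCC366 *ADAR* sg1 the difference of *CDKN1A* passed for vehicle (-0.86, adjusted p = 6.7e-05) and IFN-β (-0.86, adjusted p = 2.79e-05). The *ADAR* cells of HCC366 are then represented only by sg2, the library with many non-unique alignments, and 3032 and 4451 genes were called in all. *FDXR* and *RRM2B* then also passed with IFN-β (-0.86 and 0.81, adjusted p = 0.00262 and 0.00165). With both HCC366 *ADAR* sg2 and NCI-H196 *GFP* sg2 left out, 0 of the 9 passed in either contrast, and *CDKN1A* was at -0.38 in both (adjusted p = 0.252 and 0.174). Among the 9 genes, the largest value in the direction of a stronger response in vehicle-treated A549 cells was 0.50 for *SESN1* (adjusted p = 0.638).

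The genes also differed in how their levels followed each other. After subtraction of each line's mean, the log2 CPM of *CDKN1A* and *MDM2* over the 20 libraries had a Pearson's r of -0.58, and *MDM2* and *RRM2B* one of 0.83. Without HCC366 *ADAR* sg2 they were 0.22 and 0.55, so that the first turned its sign with 1 library. The genes most like *CDKN1A* among 19523 were *MAFG*, *MEPCE*, *FLCN*, *MGLL* and *REPIN1*, each with r of 0.96 (0.89 to 0.93 without that library). Those most like *MDM2* were *NGLY1*, *PDE8A*, *GGPS1*, *SLC41A2* and *THBS4*, with r from 0.89 to 0.91 (0.68 to 0.72). These values are descriptions over libraries that share line, sgRNA and depth.

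Beside the 9 genes, 31 other p53 targets from a fixed list were counted. They rose in 11 of 28 tested in A549 with IFN-β, 12 of 26 in NCI-H196 (where 4 fell), 9 of 26 in NCI-H1650 and 4 of 24 in HCC366. Of all genes, 10.8%, 10.3% (7.50% fell), 6.18% and 1.20% rose in these comparisons. In vehicle-treated A549 cells 0 of 28 passed with edgeR or DESeq2, and 3 had an unadjusted p under 0.05. In NCI-H196 DESeq2 called 1 of them higher and 0 lower. Without HCC366 *ADAR* sg2, 10 of 24 rose in HCC366, beside 5.91% of all genes. Without NCI-H196 *GFP* sg2, 12 of 27 rose and 4 fell in NCI-H196, beside 9.4% and 8.06% of all genes. The median log2 fold change of the list was 0.55, 0.26, 0.30, 0.07 and 0.31 in HCC366, NCI-H1650, NCI-H196 and A549 with vehicle and IFN-β. The corresponding medians of the 9 genes were -0.07, 0.15, -0.12, 0.03 and 0.16, and that of all genes lay between -0.01 and 0.01.

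*GADD45A*, a stress gene of growth arrest, *SESN2*, a stress-induced inhibitor of mTORC1, and *BBC3*, which encodes the cell death protein PUMA, led the list. *GADD45A* had log2 fold changes of 2.85 in A549 with IFN-β, 1.11 in NCI-H196, 1.50 in NCI-H1650 and 3.80 in HCC366 (adjusted p from 1.87e-22 to 0.0272). *SESN2* rose by 3.98 in HCC366, 1.25 in NCI-H196 and 2.65 in A549 with IFN-β, whereas its paralogue *SESN1* passed in none of these. *BBC3* rose by 1.65 in NCI-H196, 1.40 in NCI-H1650 and 2.38 in HCC366. Without HCC366 *ADAR* sg2 the values in HCC366 were 2.87 for *GADD45A*, 3.005 for *SESN2* and 1.75 for *BBC3*, and all 3 still passed. *GADD45A* also stands in the list of 7 ATF4-regulated genes, since the integrated stress response raises it as well. The list holds only genes that the study names, so the absence of *SESN2* and *BBC3* does not mark them as raised by p53. Of these 7 genes 7 rose in A549 with IFN-β, 7 in NCI-H196, 7 in NCI-H1650, 6 in HCC366 and 0 in A549 with vehicle, where DESeq2 also called 0 and 3 had an unadjusted p under 0.05. The shares of all genes that rose were 10.8%, 10.3%, 6.18%, 1.20% and 0.0324%. *ATF3* led them with values of 4.57, 1.57, 1.90 and 4.15 in these cells, on the log2 scale, and 3.70 in HCC366 without *ADAR* sg2. In NCI-H196 DESeq2 called 1 of the 7.

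Genes of the cell cycle, which p21 lowers through the DREAM complex, fell in 4 of 12 in NCI-H1650, 7 of 12 in NCI-H196 and 2 of 12 in A549 with IFN-β, and in 0 of 12 in HCC366 and in vehicle-treated A549 cells. Of all genes, 2.42%, 7.50%, 6.19%, 0.0449% and 0.0906% fell in these comparisons. At an unadjusted p under 0.05 the last 2 counts were 3 and 0, and DESeq2 called 2 lower and 0. In NCI-H196 it also called 0, and without the shallow library 7 of 12 fell, beside 8.06% of all genes. Without *ADAR* sg2 3 of 12 fell in HCC366, beside 3.5% of all genes. *CDK1* fell by 0.51 in NCI-H1650 and 0.64 in NCI-H196, and *TOP2A* by 0.56 in NCI-H1650, on the log2 scale. Of the p53 family members and regulators that are described here, *TP63* rose in NCI-H196 (0.93, adjusted p = 4.28e-05) and *MDM4*, an inhibitor of p53, in A549 with IFN-β (0.43, adjusted p = 0.0049). These calls are edgeR's, and in NCI-H196 DESeq2 called 0 of the 11 p53 family members and regulators, *TP63* included. The part of other pathways in the values of the 9 genes and of the other p53 targets was not tested.

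**Figure D5:**
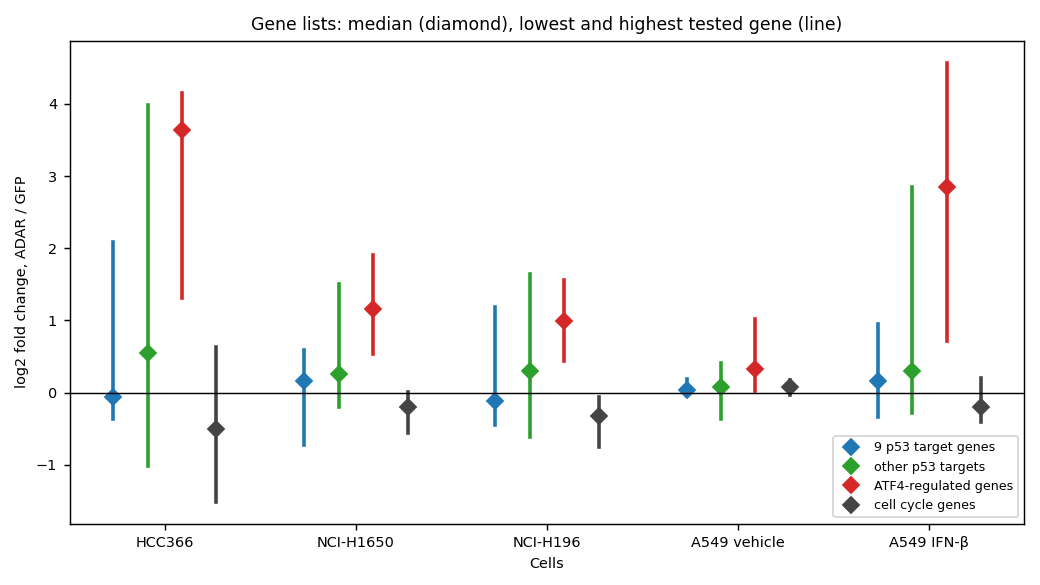
Log2 fold changes between *ADAR* and *GFP* sgRNAs for the 9 p53 target genes, the other p53 targets, the ATF4-regulated genes and the cell cycle genes in the 5 settings, with diamonds for the median and lines from the lowest to the highest tested gene. In vehicle-treated A549 cells the medians of the 9 genes and of the other p53 targets were 0.03 and 0.07.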

How the data were processed

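RNA-seq was performed on 20 libraries. Per the labels and methods, the authors depleted ribosomal RNA, made directional libraries, sequenced paired ends, mapped these with STAR to the hg19 build and obtained gene counts from HTSeq. Versions, annotation release and strand setting are not given in the sources used here. The deposited files hold raw counts per Ensembl identifier, without normalization, and the 5 summary lines of each were left out. Symbols were matched for 55727 of 58233 identifiers, with 97.4% of counts. No files held identical values. Gene models and sequence came from GRCh37 with GENCODE, not necessarily the authors' release.

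The tests were run in R 4.3.3 by edgeR 4.0.16 (quasi-likelihood F-test, TMM, filterByExpr by condition, prior count 0.125, Benjamini-Hochberg over all genes tested, threshold 0.05), with limma 3.58.1 called by edgeR. DESeq2 1.42.0 was an alternative, though the authors used it. HCC366, NCI-H1650 and NCI-H196 had a fit each, the 8 A549 libraries shared 1, and contrasts between lines used all 20. Standard errors are those of the log2 fold change. The fits were tested on simulated data. Log2 CPM for correlations had a prior count of 2.

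The sgRNA number does not name the same sgRNA for *GFP* and *ADAR*, so no block was used, while 1 sgRNA was used for both treatments of A549 under each target and number. Correlations of same-numbered deviations from the group means ran from -0.252 to 0.00756. The 9 genes, the further lists and their tests were chosen with earlier results of these data known. Named were the 9 genes, *ADAR*, at most 3 genes per list and comparison with the largest change past the threshold, and the 5 genes most like *CDKN1A* and *MDM2*. Alternatives were other size factors, no filter, DESeq2, replicate blocks, 1 fit of all libraries and leaving out each library. Intervals hold counting error and the spread between sgRNAs only. Counts at an unadjusted p under 0.05 stand without the share of all genes at that threshold, which was not computed. Some genes of these lists are not reported here.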

Additional observations from a re-analysis of the deposited data

Results flagged for a closer look

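None of the 9 p53 target genes passed a test of a difference in *ADAR* KO effect between conditions or lines. For *FDXR*, both ADAR libraries were above both GFP libraries in NCI-H1650 (log2 fold change 0.51, beside 26.2% of all genes). In A549 with IFN-β both were below (-0.34, beside 27.5%). For *SESN1*, both were below in NCI-H1650 (-0.73, beside 24.3%) and above in A549 with vehicle (0.18, beside 18.8%). The differences between these conditions were not tested, and such separations are common at these shares. None of these 4 values passed on its own.

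Among the other p53 targets, the *ADAR* KO effect in A549 was larger with IFN-β than with vehicle for *GADD45A* (interaction 2.45 on the log2 scale, adjusted p = 1.9e-08), *SESN2* (2.44, adjusted p = 2.11e-06) and *BBC3* (1.30, adjusted p = 0.0149) by edgeR's quasi-likelihood test. The effect with vehicle was smaller in A549 than in the mean of the other 3 lines for *SESN2* (-1.86, adjusted p = 0.012), *GADD45A* (-1.76, adjusted p = 0.00761) and *GDF15*, a stress-induced cytokine (-1.72, adjusted p = 0.0205). With HCC366 *ADAR* sg2 and NCI-H196 *GFP* sg2 left out, *SESN2* was at -1.46 and *GADD45A* at -1.37, and both still passed, while *GDF15* did not (-1.51, adjusted p = 0.0796).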

How the results depend on the processing

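Of 1331 values of single genes under the alternatives, 1157 kept their direction and their side of the threshold, 45 lost their call, 30 gained one, and 99 changed sign without passing in either fit, among them *FDXR* in HCC366 (0.89, and -0.51 without *ADAR* sg2). The counts of the 9 p53 target genes that passed (0 in A549 with vehicle, 2 in A549 with IFN-β, 2 in NCI-H196, 0 in NCI-H1650, 0 in HCC366, 1 and 4 for IFN-β with *GFP* and *ADAR* sgRNAs, 0 for the interaction and both contrasts between lines, and 7 for the control level) moved as follows. Without the low-count filter they were 1 in HCC366 and 1 in NCI-H196. With DESeq2 they were 1 and 0. In 1 fit of all 20 libraries they were 2 in HCC366, 0 in NCI-H196, 1 in A549 with IFN-β and 2 for IFN-β with *ADAR* sgRNAs. With each library left out in turn they ran from 0 to 2 in NCI-H196, 0 to 1 in NCI-H1650, 0 to 4 in HCC366, 1 to 3 in A549 with IFN-β, 2 to 4 for IFN-β with *ADAR* sgRNAs, 0 to 1 for the interaction, 0 to 1 and 0 to 3 for the contrasts of A549 with vehicle and with IFN-β against the other lines, and 3 to 7 for the control level. In NCI-H196 no more than 1 of the 9 genes passed with any library other than *GFP* sg2 left out. Count changes by a ratio under 1.5 are not listed here, except those with a left-out library. With DESeq2, for example, 1 gene rose and 2 fell for IFN-β with *ADAR* sgRNAs. For the control level *ZMAT3* did not pass without the filter, and *RRM2B* passed with DESeq2's size factors. The causes were not tested.

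The counts over all genes moved more. In HCC366, 139 genes passed, 903 without the filter, 298 with DESeq2 and 3701 in the fit of all libraries, with 9 to 6408 as libraries were left out. In NCI-H1650, 1250 passed, 412 with DESeq2 and 159 in the fit of all libraries, with 542 to 1110 by left-out library. In NCI-H196, 2513 passed, 1552 without the filter, 11 with DESeq2 and 98 in the fit of all libraries, with 41 to 3041 by left-out library. In A549 with vehicle, 19 passed, 30 without the filter, 8 with DESeq2 and 5 in the fit of all libraries (3 to 17 by left-out library). With IFN-β, 2622 passed and 1087 in the fit of all libraries (689 to 3581). For IFN-β, 880 passed with *GFP* sgRNAs and 531 in the fit of all libraries (517 to 1245), and 3788 with *ADAR* sgRNAs and 2067 (1774 to 3496). For the interaction, 780 passed and 164 in the fit of all libraries (253 to 1663). For the contrast of A549 with vehicle and the other lines, 186 passed, 111 without the filter and 554 without both doubted libraries (24 to 3032). With IFN-β, 404 passed, 156 with DESeq2 and 1019 without both doubted libraries (10 to 4451). For the control level 10710 passed (5575 to 10794).

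The sgRNA number as a replicate block gave 300 genes and 1 of the 9 (*CDKN1A*, adjusted p = 0.0312) in HCC366 and 115 genes and 0 of the 9 in NCI-H196. For the contrasts between lines the block gave 109 and 221 genes. Same-numbered libraries of *GFP* and *ADAR* correlated in their deviations from the group means at -0.252 in HCC366, -0.0202 in NCI-H196, -0.0300 in NCI-H1650, -0.00750 in A549 with vehicle and -0.101 with IFN-β, so the numbers were not taken as pairs. With crossed numbers, an alternative chosen after seeing the data like the removal of both doubted libraries, the block gave 960 genes and 1 of the 8 tested in HCC366, and 2 of the 9 in A549 with IFN-β. The block by sgRNA for IFN-β in A549 changed no call among the 9 genes. The median depth was 1515024 reads in HCC366 and 4660707 to 10371026 in the other lines, and the shallowest library was in NCI-H196.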
